A study of Mus musculus with 12 samples.

Results

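The collagen genes were the 44 of the 35976 gene symbols in the count table whose names consist of Col, a chain type number, the letter a and a chain number. They were divided by protein into 11 fibrillar, 9 basement membrane and 24 other collagens. RNA was measured in embryonic testis at E15.5 of outbred Swiss (RjOrl) mice, in 4 groups of 3 libraries, each made from pooled testes of 3 embryos. F1 *thia* embryos were exposed in the womb, because their mothers received thiacloprid (*thia*), a neonicotinoid insecticide, at 6 mg/kg/day in olive oil by gavage from E6.5 to E15.5, and F1 control mothers received the oil alone. F3 *thia* and F3 control embryos descended from such exposed or oil-treated mothers through males mated with untreated, unrelated females, and were not exposed themselves. The study's methods say that animals of an assay came from several litters and from repeated treatments. Which litters went into which pool is not given in the sources used here, so p-values measure the spread between pools.

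Collagens are extracellular proteins in which chains wind around each other into a rope-like helix. Fibrillar collagens assemble into the fibrils of connective tissue, such as the interstitium and the capsule of the testis. Type IV chains form the sheet-like network of basement membranes, which in the fetal testis surrounds the seminiferous cords and lies under the vessel endothelium. The remaining collagens coat fibrils, form fine filaments or hexagonal networks, or span the cell membrane.

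The libraries held 25081647 to 68996146 gene counts, so that 1 CPM, the usual library-scaled count, stood for 25.1 to 69.0 counts. The 12 Sertoli cell markers, the check of the labelled tissue, were all present, at a summed level of 1012 to 2334 CPM. Replicate 2 of F3 *thia* stood apart from its group, with a chi-square per degree of freedom of 90.7 and 101 against replicates 1 and 3, which gave 36.2 between themselves. Replicate 2 of F1 *thia* had more RNA of skeletal muscle markers, with a summed level of the 12 skeletal muscle markers of 661 CPM against 51.96 to 125 CPM in the other F1 libraries. Collagens took 1.04 to 1.58% of all counts in a library. In a pool of whole organs, a lower level can come from fewer cells of a type or from less RNA per cell, which cannot be told apart.

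Levels of different genes were compared as RPKM, the TMM-scaled CPM per kilobase of exon. Over the 12 libraries, 19 collagens had a median of at least 10 RPKM, 12 lay between 1 and 10 RPKM and 13 lay under 1 RPKM. The 3 most abundant fibrillar chains, *Col1a1*, *Col1a2* and *Col3a1*, made up 52.7 to 65.2% of the collagen counts of a library. Next in level came the chains of type VI, *Col6a1* and *Col6a2*, the type IV chain *Col4a1* and *Col18a1*. The collagen chains best known from cartilage differed widely in level. Medians were 0.411 RPKM for *Col2a1*, 0.286 RPKM for *Col9a1* and 0.205 RPKM for *Col11a2*, but 5.05 RPKM for *Col11a1*, 18.4 RPKM for *Col9a2* and 23.8 RPKM for *Col9a3*. *Col10a1*, the collagen of hypertrophic cartilage, reached at most 0.255 RPKM and did not pass the filter on low counts, which left 43 collagens for the tests.

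**Figure D1:**
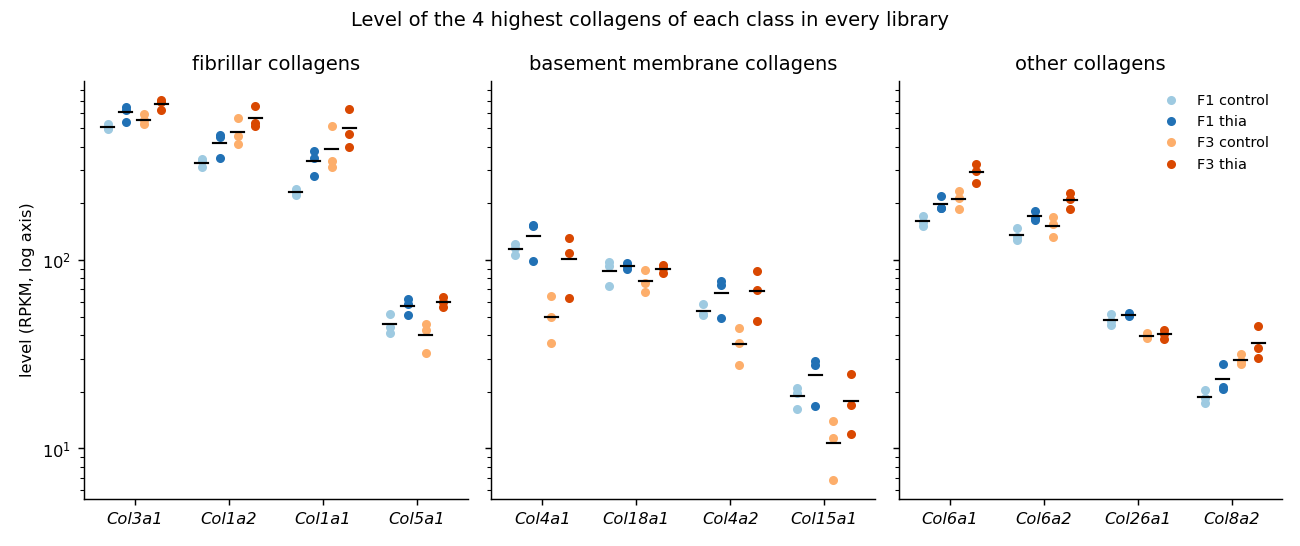
Level of the 4 collagens of each class with the highest median, in RPKM on a log axis, with 1 point per library and a line at the group mean. Fibrillar *Col3a1*, *Col1a2* and *Col1a1* have the 3 highest medians, and the type IV chains *Col4a1* and *Col4a2* have their lowest group mean in F3 control.

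The comparison of *thia* with control in F1 asks which collagens differ in directly exposed testis, and that in F3 asks the same of testis with exposed ancestors only. In F1, 30 of the 43 collagens tested had a positive log2 fold change, with a median of 0.16 against 0.0094 over all genes tested. By the quasi-likelihood test of edgeR, 0 collagens passed an FDR of 0.15, and 0.0105% of all genes did. The smallest adjusted p of a collagen was 0.408. At an unadjusted p under 0.05, 10 collagens (23.3%) were higher in *thia* testis and 0 lower, against 4.63% of all genes higher and 4.13% lower. All 3 *thia* pools lay above all 3 control pools for 9 collagens, against 6.55% of all genes, and below them for 1, against 8.45%. With DESeq2, 2 collagens passed the FDR of 0.15, *Col1a1* (adjusted p = 0.00381) and *Col6a2* (adjusted p = 0.115), against 0.488% of all genes higher.

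The F1 count at an unadjusted p under 0.05 ranged from 4 to 13 when 1 library was left out. Without control replicate 2 it was 4 (*Col1a1*, *Col6a1*, *Col6a2* and *Col9a2*). Without *thia* replicate 2, the library with the skeletal muscle markers, 5 collagens were higher (those 4 and *Col8a2*) and 3 were lower. The 3 that were lower, *Col2a1*, *Col22a1* and *Col4a3*, are named after their values were seen, with log2 fold changes of -0.82, -0.72 and -0.46 in that fit. The part of muscle or tendon tissue in the F1 values was not tested. Shares of all genes in these F1 fits are not given here, so the counts have no background.

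In F3, 38 of the 43 collagens tested had a positive log2 fold change, with a median of 0.31 against 0.0044 over all genes tested. No collagen and no other gene (0.00%) passed the FDR of 0.1 with edgeR, and the smallest adjusted p of a collagen was 0.102. At an unadjusted p under 0.05, 17 collagens (39.5%) were higher in *thia* testis and 0 lower, against 11.0% of all genes higher and 10.0% lower. The *thia* pools lay above all control pools for 16 collagens, against 13.4% of all genes, and below them for 0, against 13.9%. At the FDR of 0.15 used in F1, 11 collagens were higher, against 5.07% of all genes. With DESeq2, 16 collagens passed the FDR of 0.1, all higher, against 9.17% of all genes. When all 12 libraries shared 1 fit in edgeR, 12 collagens passed, against 5.87% of all genes.

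These F3 counts also changed when 1 library was left out. Without *thia* replicate 2, the library that stood apart, 10 collagens passed the FDR of 0.1, against 4.23% of all genes. Leaving out control replicate 1 lowered the count at an unadjusted p under 0.05 from 17 to 11, without a share of all genes to set beside it. Long genes tended to be higher in F3 *thia* libraries. The 2123 other genes with exon lengths between 5081 and 7431 bases, the middle of the collagen lengths, had a median log2 fold change of 0.13 in F3 and -0.042 in F1. With the trend over length removed, the median of the collagens was 0.20 in both generations, and 16 collagens in F1 and 12 in F3 were higher at an unadjusted p under 0.05. The share of all genes under this setting is not given here, so these 2 counts cannot be set against a background.

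Between the generations, 6 collagens were higher at an unadjusted p under 0.05 in both F1 and F3, namely the fibrillar *Col3a1* and *Col5a1*, the type VI chains *Col6a1* and *Col6a2*, and the fibril-associated *Col9a2* and *Col16a1*. They made up 60.0% of the 10 in F1 and 35.3% of the 17 in F3. Over all genes tested in both generations, the shared genes were 16.2% of those higher in F1 and 6.79% of those higher in F3. These shares also depend on how many genes were higher in F3, 39.5% of collagens and 11.0% of all genes. Whether the overlap of collagens exceeded what these shares give was not tested.

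**Figure D2:**
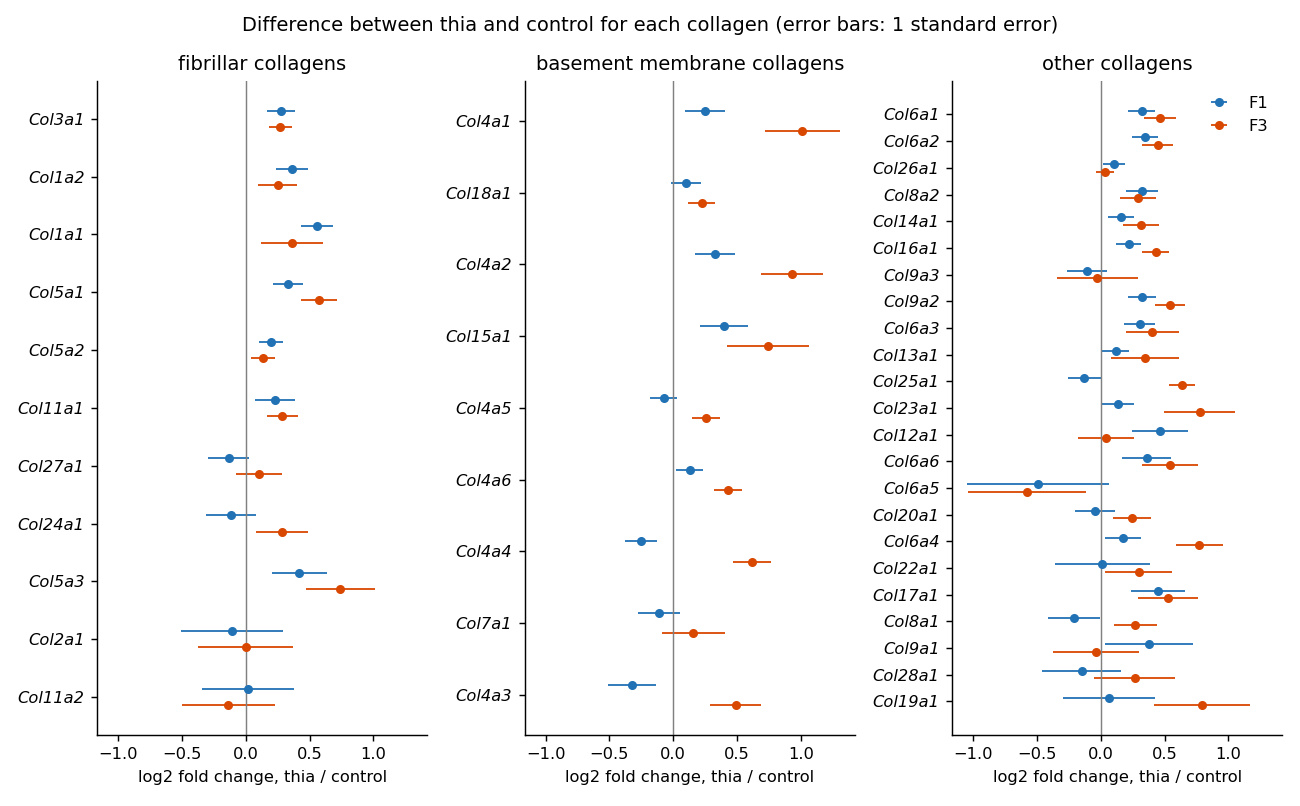
Log2 fold change of *thia* over control for the 43 collagens tested, in F1 (blue) and F3 (orange), with 1 standard error to each side, ordered within a class by median level. The F3 values of all 9 basement membrane collagens lie above 0, whereas in F1 5 of the 9 do.

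Fibrillar collagens were higher at an unadjusted p under 0.05 in 4 of 11 members in F1 (median log2 fold change 0.23) and in 3 of 11 in F3 (median 0.27). These were 36.4% in F1 against 4.63% of all genes, and 27.3% in F3 against 11.0%. *Col3a1*, on chromosome 1 from 45311538 to 45349706 (GRCm38, as for all positions here), encodes the single chain of type III collagen of soft connective tissue and had the highest level of all collagens. Its level was 526, 499 and 498 RPKM in F1 control and 543, 652 and 627 RPKM in F1 *thia* pools, which did not overlap. F3 values were 528, 550.1 and 592 RPKM in control and 686, 706 and 626 RPKM in *thia* pools, again without overlap. The log2 fold change was 0.27 (SE 0.11, adjusted p = 0.534) in F1 and 0.27 (SE 0.091, adjusted p = 0.163) in F3 (edgeR).

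*Col1a1*, on chromosome 11 from 94936224 to 94953042, and *Col1a2*, on chromosome 6 from 4504814 to 4541544, encode the chains of type I collagen, the main fibril protein of most connective tissues. *Col1a1* was at 239, 229.8 and 223 RPKM in F1 control and 278, 379 and 348 RPKM in F1 *thia* pools, so that every *thia* pool was higher. The F3 level was 334, 311 and 515 RPKM in control and 398, 632 and 468 RPKM in *thia* pools, where control replicate 3 lay above 2 of the *thia* pools. The highest F3 levels, in control replicate 3 and *thia* replicate 2, were in the F3 pools with the highest summed skeletal muscle markers, 295 and 222 CPM against 99.7 to 153 CPM in the other 4. It had the smallest p of all collagens in F1, with a log2 fold change of 0.56 (SE 0.12, adjusted p = 0.408), and 0.36 (SE 0.24, adjusted p = 0.431) in F3 (edgeR). Without *thia* replicate 2 its log2 fold change was 0.46 in F1 and 0.16 in F3, and without control replicate 3 it was 0.63 in F3. The part of muscle in these values was not tested.

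For *Col1a2* the F1 pools were at 334, 310.3 and 343 RPKM in control and 347, 459 and 447 RPKM in *thia* testis, without overlap. The F3 pools were at 454, 413 and 564 RPKM in control and 535, 657 and 513 RPKM in *thia* pools and overlapped. Its log2 fold change was 0.36 (SE 0.12, adjusted p = 0.518) in F1 and 0.25 (SE 0.15, adjusted p = 0.388) in F3 (edgeR).

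*Col5a1* encodes a chain of type V collagen, which starts and limits the growth of type I fibrils. It was at 51.8, 41.2 and 44.2 RPKM in F1 control and 50.8, 62.1 and 58.1 RPKM in F1 *thia* pools, which overlapped. The F3 pools were apart, at 32.2, 42.7 and 45.8 RPKM in control and 56.6, 59.5 and 63.8 RPKM in *thia* testis. Its log2 fold change of 0.57 (SE 0.14, adjusted p = 0.11) in F3 was the one with the smallest p among fibrillar collagens there, against 0.33 (SE 0.12, adjusted p = 0.518) in F1 (edgeR). Of the other type V chains, *Col5a2* had 0.20 in F1 and 0.14 in F3, and the scarce *Col5a3* (median 0.551 RPKM) had 0.42 and 0.74.

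The remaining fibrillar members, *Col11a1*, *Col27a1*, *Col24a1*, *Col2a1* and *Col11a2*, had log2 fold changes between -0.14 and 0.29 in the 2 generations. Markers of skeletal tissues were mixed in level, with 5 of 9 cartilage, 3 of 7 bone and 3 of 5 tendon markers at a median over 1 CPM. Among cartilage markers the medians ran from 0.254 CPM for *Chad* to 22.8 CPM for *Hapln1*, among bone markers from 0.0434 CPM for *Bglap* to 45.7 CPM for *Alpl*, and among tendon markers from 0.228 CPM for *Tnmd* to 90.9 CPM for *Fmod*. The summed cartilage list was at 62.8 to 77.4 CPM in F1 control and 61.9 to 69.3 CPM in F1 *thia* pools, which overlapped, and at 61.6 to 78.8 and 79.02 to 86.3 CPM in F3, where every *thia* pool was higher. The summed bone list was at 46.1 to 63.6 and 49.8 to 56.5 CPM in F1 control and *thia* pools, and at 38.1 to 47.9 and 44.1 to 58.5 CPM in F3. This sum was mostly *Alpl*, since the next highest median of a bone marker was 1.77 CPM, for *Runx2*. The part of these tissues in the collagen values was not tested. The summed tendon list was at 68.7 to 103 CPM in F1 control and 86.8 to 118 CPM in F1 *thia* pools, and at 147 to 167 and 142 to 177 CPM in F3. *Fmod* was its largest member, and the next highest median was 26.5 CPM, for *Scx*. With the trend over gene length removed, the fibrillar median in F3 was 0.12, and 1 of the 11 members was higher at an unadjusted p under 0.05, without a share of all genes to set beside it.

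In F3 the basement membrane class had the largest share of members higher in *thia* testis. There 6 of 9 were higher at an unadjusted p under 0.05 (median log2 fold change 0.49), and 0 of 9 in F1 (median 0.099). Of all genes, 11.0% were higher at that p in F3 and 4.63% in F1. The difference between the classes was not tested. These 6 were the type IV chains, *Col4a1*, *Col4a2*, *Col4a3*, *Col4a4*, *Col4a5* and *Col4a6*. *Col4a1* and *Col4a2* encode the chains of the common type IV network, found in basement membranes throughout the body. They lie head to head on chromosome 8, *Col4a1* on the minus strand from 11198423 to 11312826 and *Col4a2* on the plus strand from 11312805 to 11449287, and they overlap by 22 bases. Because the 2 genes with the largest F3 differences of the class start from 1 shared region, their promoter windows around the start are shown, from RefSeq (GRCm38.p6). The window of *Col4a1* is chr8:11312777-11313076 on the minus strand and that of *Col4a2* is chr8:11312555-11312854 on the plus strand, and they share 78 bases. Capitals mark matches to the GC box GGGCGG and the CCAAT box CCAAT on either strand.
*Col4a1*: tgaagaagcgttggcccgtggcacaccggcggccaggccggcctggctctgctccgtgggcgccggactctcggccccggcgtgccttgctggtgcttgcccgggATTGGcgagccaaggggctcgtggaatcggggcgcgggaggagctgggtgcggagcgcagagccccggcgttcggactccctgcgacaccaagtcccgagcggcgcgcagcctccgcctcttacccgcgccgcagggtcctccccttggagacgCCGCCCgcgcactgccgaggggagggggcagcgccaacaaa
*Col4a2*: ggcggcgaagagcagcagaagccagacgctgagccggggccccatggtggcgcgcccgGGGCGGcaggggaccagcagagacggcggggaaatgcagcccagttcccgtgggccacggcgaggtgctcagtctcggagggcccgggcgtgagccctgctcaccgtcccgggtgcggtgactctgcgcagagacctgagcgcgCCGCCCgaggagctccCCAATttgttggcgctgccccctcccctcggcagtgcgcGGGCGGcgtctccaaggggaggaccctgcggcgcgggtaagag
The *Col4a1* window held 1 match to the GC box and 1 to the CCAAT box, and the *Col4a2* window held 3 and 1. Windows were found for 35 of the 44 collagens, 38 windows in all. Of these, 60.5% held GGGCGG on either strand, against 35.7% of the 32851 windows of all genes. CCAAT was in 34.2% of the collagen windows against 37.4% of all, and TATAAA in 13.2% against 13.6%. The mean GC content was 59.01% in collagen windows and 53.8% in all. These are descriptions of the letters in the windows.

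*Col4a1* was at 36.3, 64.2 and 49.8 RPKM in F3 control and 109, 63.1 and 131 RPKM in F3 *thia* pools. Replicates 1 and 3 of *thia* lay above all control pools, and *thia* replicate 2 lay just under control replicate 2. In F1 it was at 122, 107 and 116 RPKM in control and 98.9, 154 and 152 RPKM in *thia* pools, where *thia* replicate 1 was the lowest of all 6. The log2 fold change was 1.01 (SE 0.30, adjusted p = 0.136) in F3, a 2.01-fold level, and 0.25 (SE 0.16, adjusted p = 0.644) in F1 (edgeR). Without *thia* replicate 2 the F3 value was 1.26 (adjusted p = 0.0631, edgeR).

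*Col4a2* was at 27.6, 43.8 and 36.4 RPKM in F3 control and 69.7, 47.7 and 87.6 RPKM in F3 *thia* pools, which did not overlap. Its F1 pools were at 58.3, 51.2 and 51.8 RPKM in control and 49.1, 74.02 and 76.95 RPKM in *thia* testis and overlapped. Its log2 fold change was 0.93 (SE 0.24, adjusted p = 0.121) in F3 and 0.33 (SE 0.16, adjusted p = 0.584) in F1 (edgeR).

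*Col4a3*, *Col4a4* and *Col4a5* encode the chains of the type IV network of the mature kidney glomerulus and a few other membranes, and *Col4a6* joins *Col4a5* in others. *Col4a4* and *Col4a3* also lie head to head, on chromosome 1 with 71 bases between them, as do *Col4a6* and *Col4a5* on chromosome X with 1308 bases between them. *Col4a4* was at 3.400, 3.13 and 3.24 RPKM in F1 control and 3.11, 2.74 and 2.26 RPKM in F1 *thia* pools, every one of which was lower. Its level in F3 was 1.21, 1.72 and 1.66 RPKM in control and 2.37, 2.24 and 2.44 RPKM in *thia* pools, every one of which was higher. Its log2 fold change was -0.25 (SE 0.12, adjusted p = 0.585) in F1 and 0.62 (SE 0.15, adjusted p = 0.109) in F3 (edgeR).

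The neighbour *Col4a3* was scarcer, at 0.568, 0.673 and 0.641 RPKM in F1 control and 0.512, 0.591 and 0.391 RPKM in F1 *thia* pools. Its F3 pools were at 0.2899, 0.394 and 0.425 RPKM in control and 0.515, 0.565 and 0.481 RPKM in *thia* testis. The F3 groups did not overlap and the F1 groups did. Its log2 fold change was -0.32 (SE 0.19, adjusted p = 0.625) in F1 and 0.49 (SE 0.20, adjusted p = 0.223) in F3 (edgeR).

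*Col4a5*, the more abundant X-linked chain, was at 15.4, 13.5 and 16.6 RPKM in control and 14.5, 15.4 and 12.9 RPKM in *thia* pools of F1. The level among F3 pools was 9.93, 12.8 and 10.9 RPKM in control and 12.97, 12.6 and 14.6 RPKM in *thia* pools, and groups overlapped in both generations. *Col4a6* was at 3.44, 2.84 and 3.21 RPKM in control and 3.42, 3.55 and 3.303 RPKM in *thia* pools of F1. In F3 it was at 2.63, 3.16 and 2.82 RPKM in control and 3.88, 3.504 and 4.19 RPKM in *thia* pools, with every *thia* pool higher than every control pool. The F3 log2 fold changes were 0.26 (SE 0.11, adjusted p = 0.236) for *Col4a5* and 0.43 (SE 0.11, adjusted p = 0.118) for *Col4a6*, and those in F1 were -0.075 and 0.13 (edgeR).

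*Col18a1* and *Col15a1* are collagens of the basement membrane zone, and *Col18a1*, which is linked to heparan sulfate chains, is the source of endostatin. *Col18a1* was at 97.3, 93.01 and 72.4 RPKM in control and 89.1, 96.5 and 92.7 RPKM in *thia* pools of F1, and at 75.2, 88.6 and 67.2 RPKM in control and 85.2, 93.9 and 90.5 RPKM in *thia* pools of F3. Its groups overlapped in both generations, with log2 fold changes of 0.10 (SE 0.12, adjusted p = 0.789) in F1 and 0.22 (SE 0.11, adjusted p = 0.286) in F3 (edgeR). *Col15a1*, a marker of vessels among other sites, was at 19.6, 16.1 and 21.04 RPKM in control and 16.9, 27.8 and 29.2 RPKM in *thia* pools of F1, and at 6.81, 11.4 and 13.9 RPKM in control and 17.03, 11.99 and 24.8 RPKM in *thia* pools of F3. These groups overlapped too, with log2 fold changes of 0.40 (SE 0.19, adjusted p = 0.58) in F1 and 0.74 (SE 0.32, adjusted p = 0.245) in F3 (edgeR). *Col7a1* of anchoring fibrils had a median of 0.579 RPKM and log2 fold changes of -0.11 and 0.16.

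Markers of some other cell types were also higher in F3 *thia* testis, beside these genes. At an unadjusted p under 0.05, 11.0% of all genes were higher and 10.0% lower in F3, and 4.63% and 4.13% in F1. Of the 10 endothelial markers, 8 were higher at this p in F3 *thia* testis and 0 in F1. Their summed level was 193 to 218 CPM in F3 control and 283 to 343 CPM in F3 *thia* pools, without overlap, and 282 to 348 and 302 to 368 CPM in F1. The 8 fetal Leydig markers, 4 of them higher, summed to 2392 to 3939.5 CPM in F3 control and 4196 to 7594 CPM in F3 *thia* pools, against 3479 to 4169 and 2939 to 4510.3 CPM in F1. Of the 10 interstitial and peritubular markers 6 were higher in F3, with overlapping sums of 1498 to 1691 and 1645 to 1845 CPM, and of the 12 Sertoli markers 3 were, with sums of 1023 to 1292 and 1012 to 1689.7 CPM. The 10 germ cell markers, 3 of them lower in F3 and 6 lower in F1, summed to 658 to 1018 CPM in F3 control and 431 to 859 CPM in F3 *thia* pools. Of the 9 erythroid markers 0 were higher and 3 lower in F3. Of the 12 skeletal muscle markers 1 was higher and 2 lower, and of the 6 mesothelial markers 0 were higher and 0 lower. None of these markers was at 0 in the median of the libraries, and their part in the collagen values was not tested. In F3, 3 of 8 smooth muscle markers were also higher and 0 lower. Adrenal cortex markers summed to 21.8 to 34.4 CPM in F3 control and 36.98 to 68.5 CPM in F3 *thia* pools. In F1, 4 of 12 skeletal muscle, 4 of 8 macrophage, 3 of 8 mesonephric and 2 of 5 tendon markers tested were higher, and 0 lower. The part of these lists was not tested either. With the trend over gene length removed, the basement membrane median in F3 was 0.31, and 4 of 9 members were higher at an unadjusted p under 0.05. No share of all genes is given for that setting.

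Among the 24 other collagens, 6 of the 23 tested were higher at an unadjusted p under 0.05 in F1 (median log2 fold change 0.16) and 8 in F3 (median 0.35). These were 26.1% in F1 against 4.63% of all genes, and 34.8% in F3 against 11.0%. The beaded filament group held 3 of the 6 in F1 and 4 of the 8 in F3, out of 7 members. *Col6a1* and *Col6a2*, which lie on chromosome 10 with 85161 bases between them, encode obligatory chains of type VI collagen, the fine filaments around cells. *Col6a1* was at 172, 158 and 152 RPKM in F1 control and 188, 189 and 219 RPKM in F1 *thia* pools. In F3 it was at 187, 214 and 233 RPKM in control and 257, 323 and 296 RPKM in *thia* pools. Neither generation showed overlap, and the log2 fold change was 0.32 (SE 0.10, adjusted p = 0.513) in F1 and 0.46 (SE 0.12, adjusted p = 0.123) in F3 (edgeR).

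*Col6a2* was at 148, 133 and 128 RPKM in F1 control and 163, 168 and 183 RPKM in F1 *thia* pools, and at 133, 155 and 169 RPKM in control and 187, 227 and 209.8 RPKM in *thia* pools of F3. Its groups did not overlap in either generation, with a log2 fold change of 0.35 (SE 0.10, adjusted p = 0.484) in F1 and 0.45 (SE 0.12, adjusted p = 0.126) in F3 (edgeR). The third partner, *Col6a3*, had log2 fold changes of 0.31 and 0.40. *Col6a4*, an alternative partner chain at a low level, was at 1.01, 0.964 and 0.845 RPKM in control and 1.03, 0.972 and 1.15 RPKM in *thia* pools of F1. It was at 0.904, 1.08 and 1.32 RPKM in control and 1.698, 1.74 and 2.21 RPKM in *thia* pools of F3, where the groups were apart, with a log2 fold change of 0.77 (SE 0.18, adjusted p = 0.109) against 0.17 in F1 (edgeR). Its neighbours *Col6a5* and *Col6a6* had F3 values of -0.57 and 0.54, and the scarce *Col28a1* had 0.27.

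Of the 9 fibril-associated collagens, which attach to the surface of fibrils, 2 were higher at an unadjusted p under 0.05 in each generation, *Col9a2* and *Col16a1*. That was 22.2% of them, against 4.63% of all genes in F1 and 11.0% in F3. *Col9a2* was at 16.2, 17.9 and 18.9 RPKM in F1 control and 19.8, 20.9 and 24.7 RPKM in F1 *thia* pools, which were apart. It was at 11.6, 14.5 and 14.8 RPKM in F3 control and 21.6, 20.2 and 17.9 RPKM in F3 *thia* pools, again apart, with log2 fold changes of 0.32 (SE 0.11, adjusted p = 0.518) in F1 and 0.54 (SE 0.12, adjusted p = 0.105) in F3 (edgeR). Its partner chain in type IX collagen, *Col9a3*, was at 37.7, 44.2 and 28.9 RPKM in control and 32.8, 40.1 and 29.1 RPKM in *thia* pools of F1. In F3 it was at 13.5, 18.7 and 11.4 RPKM in control and 18.3, 7.802 and 16.7 RPKM in *thia* pools, and groups overlapped in both generations, with log2 fold changes of -0.11 and -0.027. The F3 *thia* pool with the lowest *Col9a3* was replicate 2. *Col16a1* had log2 fold changes of 0.22 in F1 and 0.43 in F3, and *Col12a1*, *Col14a1*, *Col19a1*, *Col20a1*, *Col22a1* and *Col9a1* lay between -0.045 and 0.47 in F1 and between -0.036 and 0.79 in F3.

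The 4 transmembrane collagens had a median log2 fold change of 0.12 in F1 and 0.58 in F3. *Col25a1*, known from neurons and from motor nerve attachment to muscle, was at 7.35, 6.56 and 9.18 RPKM in F1 control and 6.42, 6.82 and 7.59 RPKM in F1 *thia* pools, which overlapped. In F3 it was at 3.89, 4.93 and 4.62 RPKM in control and 7.15, 6.59 and 7.15 RPKM in *thia* pools, which were apart. It had the smallest p of all collagens in F3, with a log2 fold change of 0.63 (SE 0.10, adjusted p = 0.102), against -0.13 (SE 0.13, adjusted p = 0.749) in F1 (edgeR). The values for *Col23a1*, *Col17a1* and *Col13a1* in F3 were 0.77, 0.53 and 0.35.

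*Col26a1*, a secreted collagen known from testis and ovary, had the third highest level of the other collagens. It was at 51.5, 47.6 and 45.4 RPKM in control and 52.4, 50.5 and 50.9 RPKM in *thia* pools of F1, and at 38.7, 40.97 and 39.1 RPKM in control and 40.6, 38.3 and 42.5 RPKM in *thia* pools of F3. The groups overlapped in both generations, with log2 fold changes of 0.11 (SE 0.086, adjusted p = 0.7) in F1 and 0.031 (SE 0.070, adjusted p = 0.829) in F3 (edgeR). *Col8a2*, a chain of a hexagonal network known from the cornea and from vessel walls, was at 20.4, 17.4 and 18.5 RPKM in control and 28.02, 20.7 and 21.1 RPKM in *thia* pools of F1 and at 28.1, 29.04 and 31.7 RPKM in control and 34.04, 44.6 and 30.3 RPKM in *thia* pools of F3. Its F1 groups were apart and its F3 groups overlapped, with log2 fold changes of 0.33 (SE 0.13, adjusted p = 0.526) and 0.29 (SE 0.14, adjusted p = 0.289) (edgeR). *Col8a1* had -0.21 in F1 and 0.27 in F3.

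Whether the effect of *thia* differed between the generations was tested as the F3 log2 fold change minus that in F1, in 1 fit of the 12 libraries. No collagen passed an FDR of 0.1 with edgeR, nor did any other gene with a positive difference (0.00%). At an unadjusted p under 0.05, 5 collagens (11.6%) had a larger F3 value and 0 a smaller one, against 7.93% of all genes larger and 6.10% smaller. These were *Col4a3*, *Col4a4*, *Col4a5*, *Col25a1* and *Col6a4*, a share near that of all genes. The difference was 0.89 (SE 0.20, adjusted p = 0.248) for *Col4a4*, 0.78 (SE 0.18, adjusted p = 0.248) for *Col25a1* and 0.83 (SE 0.27, adjusted p = 0.254) for *Col4a3* (edgeR). With DESeq2 these 3 collagens passed, with adjusted p of 0.0122, 0.0171 and 0.0907, against 2.85% of all genes larger. With the trend over gene length removed, their adjusted p was 0.40, 0.40 and 0.50 (edgeR). The control pools, which enter this difference, also differed for these 3. F3 control lay below F1 control by a log2 difference of -1.09, -0.78 and -0.76. All 9 basement membrane collagens had a positive difference, as did 7 of 11 fibrillar and 18 of 23 other collagens. For *Col4a1* the difference was 0.78 (SE 0.36, adjusted p = 0.36) and for *Col1a1* it was -0.17 (SE 0.28, adjusted p = 0.82) (edgeR).

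The control testes of F3 and F1 were compared to set the baseline of these differences. Anything else that differed between the F1 and F3 pools cannot be told apart from generation here. Summed marker levels of several cell types did not overlap between the controls. Sertoli markers were at 1952 to 2144 CPM in F1 and 1023 to 1292 CPM in F3 control pools, and endothelial markers at 282 to 348 and 193 to 218 CPM, so that both lists were lower in F3. Mesothelial markers were higher in F3, at 198 to 259.9 CPM in F1 and 589.9 to 683 CPM in F3 control pools, as were erythroid markers, at 5220.4 to 15442 and 61983 to 66744 CPM. The part of these cell types in the collagen values was not tested. Of the 43 collagens, 7 were higher and 16 lower in F3 control testis at an FDR of 0.1 (edgeR), against 19.9% of all genes higher and 22.4% lower. With the trend over gene length removed, 12 were higher and 12 lower, and the shares of all genes under that setting are not given here. Among basement membrane collagens 0 of 9 were higher and 6 lower, namely *Col4a1*, *Col4a2*, *Col4a3*, *Col4a4*, *Col4a5* and *Col15a1*. The log2 difference of F3 control from F1 control was -1.09 (SE 0.14, adjusted p = 0.000288) for *Col4a4*, -1.20 (SE 0.26, adjusted p = 0.0045) for *Col4a1* and -1.34 (SE 0.28, adjusted p = 0.00353) for *Col9a3* (edgeR). *Col25a1* was lower too, at -0.78 (SE 0.13, adjusted p = 0.000895) (edgeR).

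In the fibrillar class 3 of 11 members were higher and 2 lower, near the shares of 19.9% and 22.4% over all genes, and the difference between the classes was not tested. *Col1a1* was higher in F3 control testis by 0.75 (SE 0.20, adjusted p = 0.0137), *Col1a2* by 0.54 (SE 0.14, adjusted p = 0.013) and *Col5a2* by 0.27 (SE 0.087, adjusted p = 0.0302) (edgeR). The fibrillar *Col24a1* and *Col27a1* were lower, with -0.85 and -0.71. *Col4a2* had -0.58 (SE 0.22, adjusted p = 0.0634) (edgeR), and its call was lost without any 1 of 5 of the 6 control libraries, with adjusted p of 0.104 to 0.217, and with upper quartile scaling or the length trend removed. That for *Col15a1* was lost without F1 control replicate 3 or F3 control replicate 1, and that for *Col9a2* without F3 control replicate 1. With the length trend removed, *Col15a1* and *Col4a5* did not pass either. Since F3 control is the reference of the F3 comparison and was lower than F1 control for these basement membrane chains, the levels in F3 *thia* pools are given against both. For *Col4a1* the F3 *thia* mean was 101 ± 34.7 RPKM (SD, n = 3), that of F3 control 50.1 ± 13.9 and that of F1 control 115 ± 7.75. For *Col4a4* the corresponding means were 2.35 ± 0.103, 1.53 ± 0.283 and 3.26 ± 0.138 RPKM (SD, n = 3).

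Summed over each class, the levels describe the same differences without a test. All collagens together were at 11060.4 ± 501 CPM in F1 control and 13589 ± 1404 CPM in F1 *thia* pools (SD, n = 3), a 1.23-fold level. In F3 they were at 12604 ± 1561 CPM in control and 16203 ± 1176 CPM in *thia* pools (SD, n = 3), a 1.29-fold level, and groups were apart in both generations. The fibrillar sum was 1.27-fold in F1, where groups were apart, and 1.23-fold in F3, where they overlapped. The basement membrane sum was 1879.5 ± 124 CPM in F1 control, 2144 ± 353 in F1 *thia*, 1184 ± 213 in F3 control and 1873 ± 389 in F3 *thia* pools (SD, n = 3). It was thus 1.14-fold in F1, with overlap, and 1.58-fold in F3, without. The other collagens were 1.19-fold in F1 and 1.33-fold in F3, apart in both. Basement membrane collagens made up 16.6 to 17.4% of the collagen counts in F1 control and 7.98 to 11.7% in F3 control pools.

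**Figure D3:**
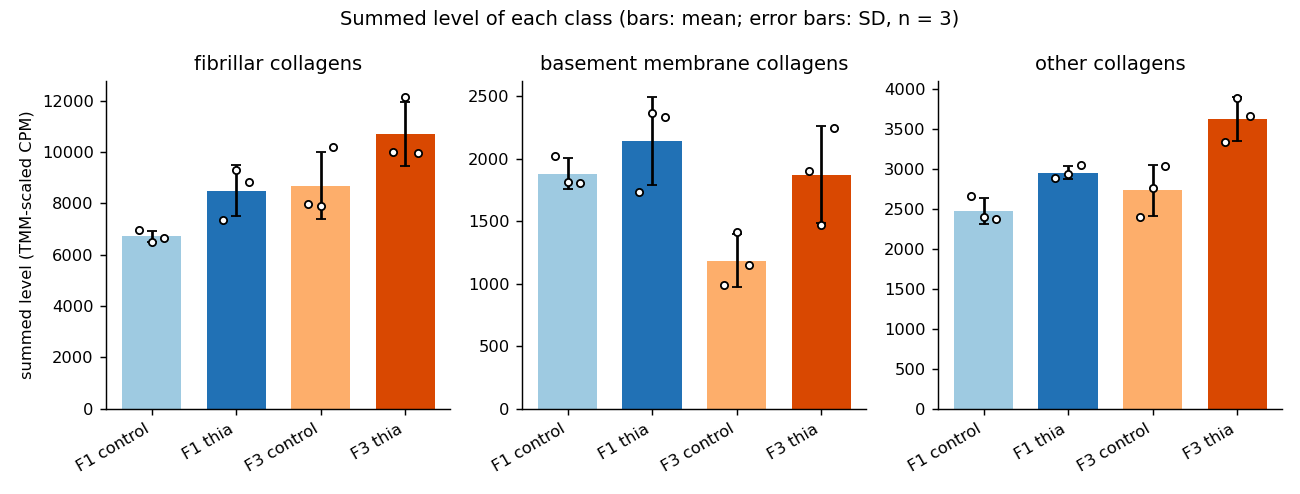
Summed TMM-scaled CPM of fibrillar, basement membrane and other collagens in the 4 groups, with bars for the mean, error bars for the SD of 3 libraries and points for the libraries. The basement membrane sum is lowest in F3 control, and in F3 *thia* it reaches 1873 CPM, near the F1 control mean of 1879.5 CPM.

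The ratio between chains that join in 1 protein was computed in every library from their RPKM. With 3 pools against 3, the smallest p of an exact two-sided permutation test is 0.1. The ratio of *Col1a1* to *Col1a2* was 0.715, 0.741 and 0.649 in F1 control and 0.801, 0.825 and 0.778 in F1 *thia* pools, all higher (exact permutation p = 0.1, the smallest possible). F3 values were 0.737, 0.754 and 0.913 in control and 0.744, 0.961 and 0.912 in *thia* pools (exact permutation p = 0.5). The ratio of *Col4a1* to *Col4a2* was 2.098, 2.09 and 2.23 in F1 control and 2.02, 2.08 and 1.98 in F1 *thia* pools, all lower (exact permutation p = 0.1, the smallest possible), with a log2 difference of -0.079. In F3 it overlapped, at 1.32, 1.47 and 1.37 in control and 1.56, 1.32 and 1.496 in *thia* pools (exact permutation p = 0.4). F3 control lay below F1 control in every pool, with a log2 difference of -0.63 (exact permutation p = 0.1, the smallest possible).

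*Col4a4* exceeded *Col4a3* in every library, with ratios of *Col4a3* to *Col4a4* between 0.164 and 0.256. The ratio of *Col4a5* to *Col4a6* was 4.48, 4.75 and 5.19 in F1 control and 4.24, 4.33 and 3.895 in F1 *thia* pools, all lower. It was 3.77, 4.04 and 3.88 in F3 control and 3.34, 3.598 and 3.49 in F3 *thia* pools, all lower as well (exact permutation p = 0.1 in each generation, the smallest possible). The log2 difference of *thia* from control was -0.21 in F1 and -0.16 in F3, and this was the ratio of the 5 that was lower without overlap in both generations. The ratio of *Col6a1* to *Col6a2* had geometric means of 1.18 and 1.16 in F1 control and *thia* pools, and 1.39 and 1.402 in F3. Its spread within a group was at most 0.04898 on the log2 scale (SD, n = 3).

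**Figure D4:**
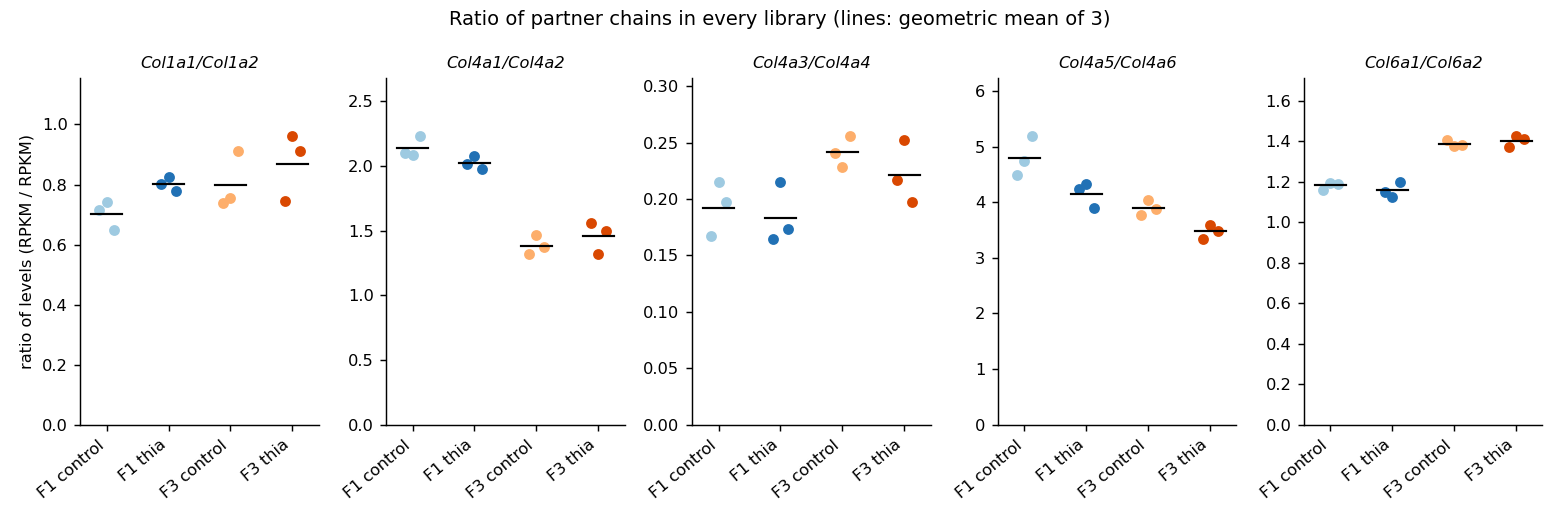
Ratio of RPKM values of 5 pairs of partner chains in every library, with a line at the geometric mean of each group. *Col4a5*/*Col4a6* is lower in *thia* than in control pools in both generations, and *Col4a1*/*Col4a2* is lower in all F3 than in all F1 libraries.

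Genes that make, process, crosslink, degrade or bind collagen were counted in 8 lists. In F3, the lists of modifying enzymes, crosslinking enzymes and basement membrane partners held the largest shares of members higher at an unadjusted p under 0.05, against 11.0% of all genes. Their F3 medians of 0.23, 0.27 and 0.42 were 0.27, 0.12 and 0.36 with the trend over gene length removed. In F1 the background was 4.63%, and 0 genes of the lists passed the FDR of either generation with edgeR. With DESeq2, 0 passed in F1, whereas in F3 members of all 8 lists did, against 9.17% of all genes higher. Among them were 9 of the 16 basement membrane partners, 5 of the 15 modification enzymes, 4 each of the assembly and degradation lists, 3 each of the propeptide, crosslinking and receptor lists and 2 of the folding list, and *Sec13* passed as lower. With all 12 libraries in 1 edgeR fit, 8 basement membrane partners, 6 modification enzymes and 2 or 3 members of each other list were called higher in F3, against 5.87% of all genes, and *Sec13* lower. Of the 15 prolyl and lysyl modification enzymes, 1 was higher in F1 and 8 in F3, with medians of 0.13 and 0.23. *P4ha2*, a prolyl hydroxylase subunit, had a log2 fold change of 0.35 (SE 0.12, adjusted p = 0.518) in F1 and -0.017 in F3 (edgeR). The lysyl hydroxylases *Plod1* and *Plod3* had 0.19 and 0.13 in F1, and 0.32 (SE 0.088, adjusted p = 0.126) and 0.45 (SE 0.10, adjusted p = 0.105) in F3 (edgeR), where *P4ha3* had 0.44. The RPKM of *Plod3* was 17.04, 19.01 and 19.4 in F3 control and 23.7, 24.2 and 27.9 in F3 *thia* pools, without overlap.

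Of the 17 folding and export genes, 1 was higher in F1, and 2 were higher and 1 lower in F3, with medians of 0.038 and 0.032. The higher members made up 5.88% in F1 and 11.8% in F3, near the shares of 4.63% and 11.0% over all genes. *Serpinh1*, the chaperone that binds folded procollagen, was at 530.5, 481 and 470.3 RPKM in F1 control and 617, 535 and 571 RPKM in F1 *thia* pools, with log2 fold changes of 0.23 (SE 0.10, adjusted p = 0.565) in F1 and -0.00045 in F3 (edgeR). *Fkbp10*, a prolyl isomerase, had 0.22 and 0.12. In F3, *Creb3l1*, a transcription factor of collagen secretion, had 0.40 (SE 0.091, adjusted p = 0.105), and *Sec13*, a coat protein of vesicles, had -0.23 (SE 0.068, adjusted p = 0.135) (edgeR). Of the 10 genes for propeptide removal, 0 were higher in F1 and 3 in F3, with medians of 0.17 and 0.34. *Adamts2*, which cuts the amino-terminal propeptide, had 0.19 in F1 and 0.60 (SE 0.083, adjusted p = 0.101) in F3, and *Pcolce*, which enhances the cut of the other propeptide, had 0.51 (SE 0.15, adjusted p = 0.139) (edgeR). The protease *Mep1a* was scarce, with 0.46 and -0.34.

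Crosslinking enzymes were higher in 1 of 7 in F1 and 4 of 7 in F3, with medians of 0.11 and 0.27. Over all genes the shares that were higher were 4.63% in F1 and 11.0% in F3. *Loxl1*, an oxidase that crosslinks collagen and elastin, had 0.26 (SE 0.10, adjusted p = 0.523) in F1 and 0.33 (SE 0.11, adjusted p = 0.155) in F3 (edgeR), with pools apart in both. *Loxl2* had 0.22 and 0.29, and *Loxl4* had -0.013 and 0.54. Of the 17 proteoglycans and glycoproteins of fibril assembly, all had a positive log2 fold change in F1, and 4 were higher at an unadjusted p under 0.05 in each generation, with medians of 0.23 and 0.24. *Matn2* had 0.38 (SE 0.11, adjusted p = 0.481) in F1, *Thbs2* had 0.75 (SE 0.11, adjusted p = 0.101) in F3 and *Bgn*, which binds fibrils, had 0.39 (SE 0.079, adjusted p = 0.105) in F3 (edgeR). *Kera*, a proteoglycan known from cornea and tendon, had 2.57 in F1, where *thia* replicate 2 was at 3.54 RPKM and the other F1 pools at 0.154 to 0.509 RPKM.

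Of the 18 degradation genes 17 were tested, and 1 was higher in F1 and 5 in F3, with medians of 0.13 in both. The F1 share of 5.88% was near the 4.63% of all genes, and the F3 share was 29.4% against 11.0%. *Mmp15*, a membrane-bound protease, had 0.25 (SE 0.10, adjusted p = 0.551) in F1 and 0.80 (SE 0.18, adjusted p = 0.105) in F3 (edgeR), with pools apart in both generations. *Mmp2*, which digests unfolded collagen and type IV collagen, had 0.25 and 0.088, and the carboxypeptidase *Prcp* had -0.13 and 0.46. Of the 11 collagen receptors, 1 was higher in F1 and 3 in F3, with medians of -0.022 and 0.21. *Itga11* had 0.30 in F1 and -0.019 in F3, *Adgrg6* had 0.29 and 0.21, and the fibril receptors *Ddr2* and *Adgrg1* had 0.34 (SE 0.086, adjusted p = 0.114) and 0.58 (SE 0.17, adjusted p = 0.14) in F3 (edgeR).

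The 16 basement membrane partners, laminins and other proteins that lie in the same sheet as type IV collagen, held 9 higher members in F3 and 1 in F1, with medians of 0.42 and 0.13. *Lamc1*, a laminin chain shared by most laminins, was at 22.2, 27.2 and 26.3 RPKM in F3 control and 37.5, 40.8 and 43.9 RPKM in F3 *thia* pools, without overlap, with a log2 fold change of 0.69 (SE 0.10, adjusted p = 0.101) (edgeR). *Lama4*, a laminin chain of vessels, was at 7.06, 9.87 and 9.17 RPKM in control and 15.4, 13.97 and 15.7 RPKM in *thia* pools, also apart, with 0.79 (SE 0.13, adjusted p = 0.104) (edgeR). *Lama2* and *Lamb2* had 0.29 and 0.18 in F1, and 0.76 and 0.71 in F3. Over the 8 lists together, 10 genes were higher or lower at an unadjusted p under 0.05 in F1 and 39 in F3. Of all genes, 4.63% were higher and 4.13% lower at that p in F1, and 11.0% and 10.0% in F3. The F1 number was 20 without control replicate 1, 4 without control replicate 2 and 6 without *thia* replicate 1. With 1 library left out, the F3 number was 27 to 46. Shares of all genes are not given for these fits.

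**Figure D5:**
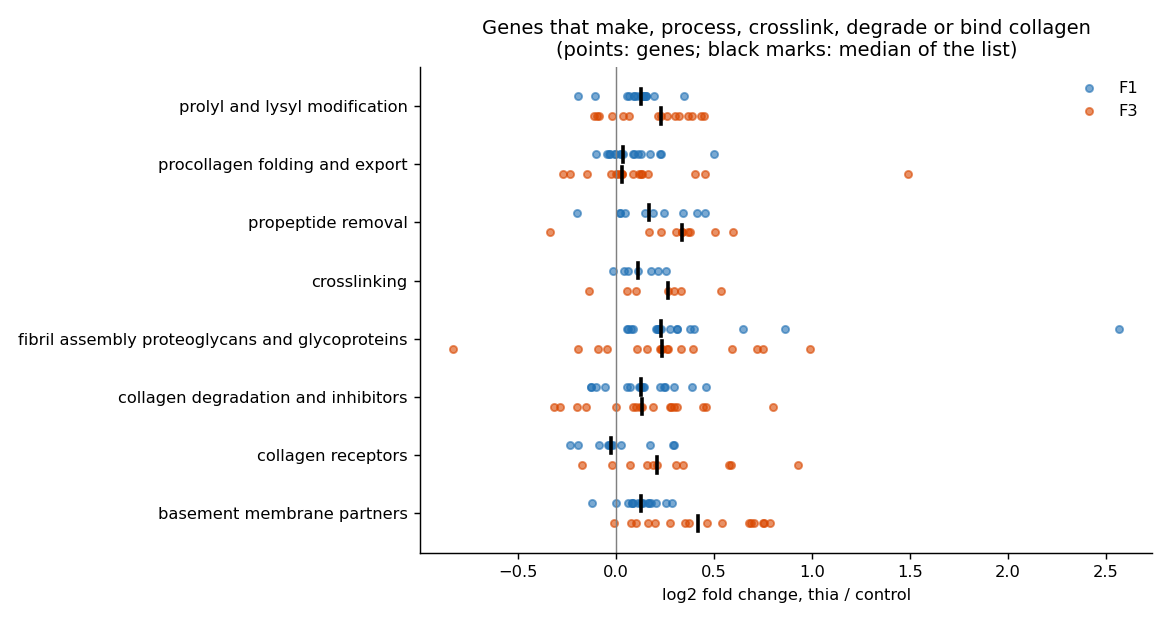
Log2 fold change of *thia* over control for the genes of 8 lists around collagen, in F1 (blue) and F3 (orange), with 1 point per gene and a black mark at the median of each list. The medians in F3 reach 0.42 for basement membrane partners, and the largest point in F1, at 2.57, is *Kera*.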

How the data were processed

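RNA-seq of embryonic testis at E15.5 was analysed in 12 libraries, 3 in each of F1 control, F1 *thia*, F3 control and F3 *thia*, grouped by the labels. The authors mapped strand-specific paired-end reads to mm10 with HISAT2 2.1.0 and counted them per gene of the refGene annotation with featureCounts, and the deposited values are raw counts for 35976 symbols. Whether pairs or single reads were counted is not given in the sources used here.

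Counts were tested with edgeR 4.0.16 and DESeq2 1.42.0 under R 4.3.3 (limma 3.58.1), and figures drawn with matplotlib 3.10.9 under Python 3.11.15. Genes were kept by filterByExpr at a minimum count of 10 and libraries scaled by TMM. For each generation alone, *thia* pools were set against control pools with edgeR's quasi-likelihood test. Its p-values were adjusted by Benjamini-Hochberg over every gene tested, and the FDR threshold was 0.15 for F1 and 0.1 for F3. The difference between the effects and between the controls used 1 fit of the 12 libraries at an FDR of 0.1. Standard errors were derived from the test statistic. Exon lengths for RPKM came from GENCODE M21 transcripts paired with RefSeq records, with 26763 symbols matched directly and 542 through synonyms.

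Collagens named with all values were the 4 highest of each class, those with the 5 smallest p in F1 and in F3, those with the 3 smallest p for the difference and for the controls, and partner chains, 20 in all, and in each of the 8 other lists the 2 genes with the smallest p in each generation. The members, lists and rules were chosen with earlier results of these data known. Alternatives were DESeq2, DESeq2 size factors, upper quartile scaling, other filters, all libraries in 1 fit, a replicate block, removal of the trend over gene length by loess (span 0.3), another FDR and leaving out each library. The fits were tested on simulated data.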

Additional observations from a re-analysis of the deposited data

Results flagged for a closer look

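*Col4a4*, a type IV chain, had log2 fold changes of opposite sign in the generations. They were -0.25 (SE 0.12, adjusted p = 0.585) in F1 and 0.62 (SE 0.15, adjusted p = 0.109) in F3 (edgeR), and neither passed. All 3 *thia* pools were lower than all control pools in F1 (3.400, 3.13 and 3.24 RPKM in control, 3.11, 2.74 and 2.26 RPKM in *thia* pools), and all 3 were higher in F3 (1.21, 1.72 and 1.66 RPKM in control, 2.37, 2.24 and 2.44 RPKM in *thia* pools). Of all genes, 8.45% lay wholly below control in F1 and 13.4% wholly above control in F3. The F3 log2 fold change of *Col4a4* exceeded that in F1 by 0.89 (SE 0.20, unadjusted p = 0.000628, adjusted p = 0.248, edgeR). This did not pass the FDR of 0.1, whereas DESeq2 gave an adjusted p of 0.0122. Its neighbour *Col4a3* had log2 fold changes of -0.32 in F1 and 0.49 in F3, with overlapping groups in F1. The control pools themselves differed for *Col4a4*, by -1.09 between F3 and F1.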

How the results depend on the processing

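Of the results on counts, medians, sums and ratios, 291 of 312 values under an alternative were scored as unchanged. A count within a set fold of the main count was scored so, as was a count of 0 in both. Smaller shifts in counts are therefore among the 291, and the number does not measure how stable the values are. In F1 the number of collagens called was 2 with DESeq2 and 1 without the filter (*Col1a1*), and in F3 it was 16 with DESeq2, 2 with upper quartile scaling, 6 without the filter, 1 with at least 10 counts in every library, 12 with all libraries in 1 fit and 11 at an FDR of 0.15. For the difference between the effects it was 3 with DESeq2. At an unadjusted p under 0.05 the F1 count was 16 without the filter and 16 with the length trend removed, settings for which no share of all genes is given. With the length trend removed, the F3 median fell from 0.31 to 0.20 for all collagens and from 0.27 to 0.12 for fibrillar collagens. It fell from 0.49 to 0.31 for basement membrane and from 0.35 to 0.22 for other collagens. Leaving out 1 library gave 0 to 10 collagens called in F3, 4 to 13 at an unadjusted p under 0.05 in F1 and 11 to 22 in F3, a basement membrane median of -0.0084 to 0.18 in F1, and 4 to 20 list genes at an unadjusted p under 0.05 in F1. The cause of these changes was not tested. Shares of all genes are not given here for upper quartile scaling, the other filters or most fits without 1 library. Counts under those settings cannot be set against a background.

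Replicate numbers did not pair the libraries, since deviations of same-numbered libraries correlated at -0.034 to 0.021 in F1 and -0.42 to 0.23 in F3, and not every library correlated best with its own number. With a replicate block, 0 collagens were called in F1, F3 and for the difference, and 21 between the controls, and 10 in F1 and 16 in F3 had an unadjusted p under 0.05. No share of all genes is given for the block, so these counts have no background. With the block and the length trend removed, the F3 median was 0.12 for fibrillar and 0.21 for other collagens.

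Signs changed in values that did not pass a test. With the length trend removed, the difference F3 minus F1 was -0.14 for *Col3a1*, -0.021 for *Col18a1* and -0.054 for *Col6a2*, and with the block as well it was -0.14, -0.033 and -0.058. It was -0.061 for *Col3a1* with upper quartile scaling and 0.019 for *Col8a2* without the filter. Between the controls, removal of the trend gave 0.14 for *Col5a1*, 0.041 for *Col18a1* and 0.13 for *Col4a6*, and with the block 0.13, 0.047 and 0.13. Leaving out 1 library gave F3 minus F1 differences of -0.061 to 0.069 for *Col3a1*, -0.21 to 0.046 for *Col1a2*, -0.38 to 0.088 for *Col1a1*, -0.19 to 0.14 for *Col8a2* and -0.10 to 0.39 for *Col9a3*. It gave F1 values of -0.024 to 0.18 for *Col18a1*, -0.24 to 0.010 for *Col25a1* and -0.26 to 0.042 for *Col9a3*, and F3 values of -0.0097 to 0.070 for *Col26a1* and -0.26 to 0.27 for *Col9a3*. The 13 collagens under 1 RPKM rest on fewer counts than the rest.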
